A study of Mus musculus with 6 samples.

Results

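The genes described here encode the MCM helicase and the factors that license DNA for replication. They are Mcm2, Mcm3, Mcm4, Mcm5, Mcm6, Mcm7, Mcm10, Cdc6, Cdt1 and Gmnn, 10 genes among the 18238 that were tested. They were found by gene symbol in the array annotation, and each had 1 probe set, so no choice between probe sets was needed. All 10 passed the filter for dim probe sets, which asked for 5 or more log2 units on 3 or more of the arrays. In RefSeq's gene table Mcm3 and Mcm6 lie on chromosome 1, Mcm10 on 2, Mcm7 on 5, Mcm2 on 6, Mcm5 and Cdt1 on 8, Cdc6 on 11, Gmnn on 13 and Mcm4 on 16. The tissue was injured kidney from BALB/c males at an age of 10 to 12 weeks, profiled on 6 Mouse Gene 1.0 ST arrays, 1 per sample. A kidney was made ischemic with a clamp for 26 min and reperfused, and the contralateral kidney was removed. At 24 h after injury, mice of 1 group received vehicle (2-(hydroxypropyl)-b-cyclodextrin at 20% in water) and mice of the other received m4PTB at 100 mg per kg, a compound known as methyl 4-(phenylthio)butanoate, an inhibitor of histone deacetylases, and kidneys were taken 12 h later, on day 1.5. Both groups (3 arrays each) therefore carried the same injury and nephrectomy, no uninjured kidney was analysed here, and the kidneys had been chosen for a like degree of injury from serum creatinine, blood urea nitrogen and Kim1. All values are log2 RMA signals of whole kidney RNA, so a higher signal from more cells in cycle and one from more RNA per cell cannot be told apart. Vehicle replicate 3 stood apart from the other arrays, with a mean correlation of 0.987 with them over all genes tested, against 0.993 to 0.994 for the rest. A level used below, the control ceiling, is the value under which 90% of an array's negative controls fall.

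Licensing loads the replicative helicase on DNA before S phase. The origin recognition complex, Cdc6 and Cdt1 place a ring of the subunits Mcm2 to Mcm7 around double-stranded DNA, and kinases together with Cdc45, the GINS proteins and Mcm10 later turn this ring into a working helicase. Geminin, the product of Gmnn, binds Cdt1 and blocks reloading until the next cycle. Quiescent cells hold little of these proteins, and many of the genes are known targets of E2F transcription factors. In the kidney, surviving tubule cells enter the cycle in the days after ischemia, when replication genes are known to be induced.

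All 10 licensing genes had a higher mean signal in m4PTB than in vehicle kidneys, with a median log2 difference of 0.36 and single differences from 0.13 for Gmnn to 0.68 for Mcm6. Of all genes tested 54.5% had a higher mean in m4PTB kidneys, and their median difference was 0.01. None of the 10 passed limma's test over all genes, where the adjusted p of the members ran from 0.587 to 0.711 and 0% of the 18238 genes were called. At an unadjusted p under 0.05 there were 8 of the 10, the exceptions being Mcm3 and Gmnn, all higher, while 4.67% of all genes were higher and 2.56% lower at that level. The 3 m4PTB values lay above all 3 vehicle values for Mcm2, Mcm6 and Mcm10, 3 of the 10, while 9.38% of all genes separated in that direction and 5.21% in the other. The count of 8 was 2 when vehicle replicate 1 was left out (5.07% of all genes higher at that level), 3 without vehicle replicate 3 (4.30%), 3 without m4PTB replicate 1 (2.62%) and 3 without m4PTB replicate 2 (3.06%). Leaving out vehicle replicate 2 gave 9 members (6.08%), and leaving out m4PTB replicate 3 gave 8 (3.80%). Other settings gave 4 after subtraction of array medians (2.42%), 5 with array weights (5.90%) and 9 with the replicate number as a block (3.93%). A filter at the control ceiling on 3 or more arrays left 5 members and gave 5 (6.83%). Of these 5, Mcm4 and Mcm6 lay above the ceiling only on the 3 m4PTB arrays and vehicle replicate 2. Both were kept through the group where they were higher, so this count was partly fixed by the filter. After subtraction of array medians all 10 means were still higher in m4PTB kidneys, while 441 of 1505 genes below an unadjusted p of 0.05 were higher, compared with 852 of 1318 in the deposited scaling.

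**Figure D1:**
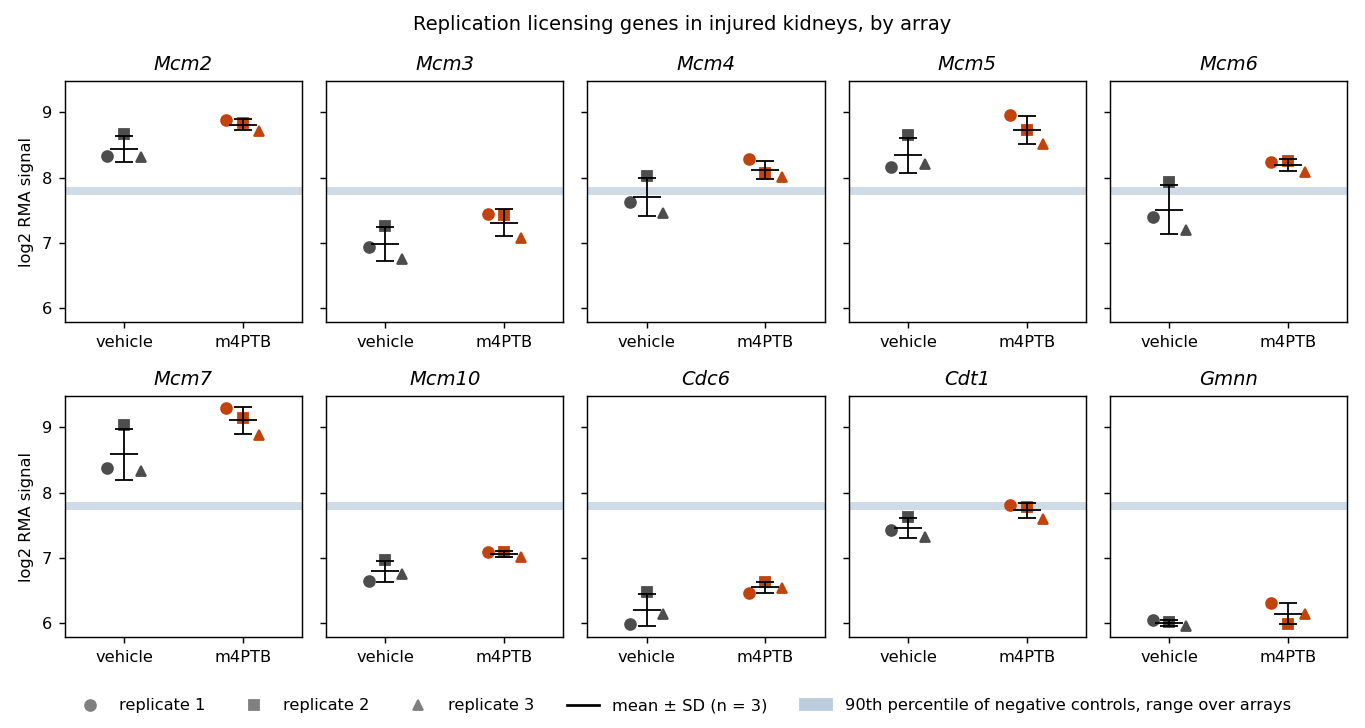
Log2 RMA signal of each licensing gene on each array, with vehicle in dark grey and m4PTB in rust, the symbol giving the replicate number of the labels and bars the mean and SD (n = 3). Vehicle replicate 2, the grey square, lies near or within the m4PTB values in the panels of Mcm2 to Mcm7, Mcm10, Cdc6 and Cdt1. The values of Mcm3, Mcm10, Cdc6 and Gmnn lie below the control ceiling, drawn as a band over its range between arrays. Cdt1 enters the band on m4PTB replicates 1 and 2, each under its own array's ceiling, narrowly on replicate 1 (7.816 against 7.819).

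The promoters are shown first, because binding sites for E2F are the sequence feature that licensing genes are best known to share. RefSeq windows on GRCm38.p6, from 250 bases before to 50 bases after a transcription start, were found for 8 of the 10 genes, with 2 windows for Mcm7 and none matched for Mcm4 or Gmnn. They were searched on both strands for TTTCCCGC, TTTCGCGC, TTTGCCGC and TTTGGCGC, the E2F letters, which can overlap each other on opposite strands, and for TTTGAA and TTCGAA, letters of the CHR element of cell cycle genes. Windows of 6 of the 8 genes, Mcm3, Mcm5, Mcm6, Mcm7, Cdc6 and Cdt1, held E2F letters, while 2.26% of all 32851 windows and 3.95% of the 13533 tested genes with a window did. CHR letters stood in the windows of Mcm2 and Mcm7, and in 19.2% of all windows. Mcm6, whose log2 difference was the highest of the members, had E2F letters at 2 separate places, an overlapping pair of matches whose letters begin 110 and 106 bases before the start and a single match 47 bases before it. Of the 2 windows of Mcm7, the one printed below held an E2F match 165 bases before the start and another that begins at transcribed base 17. The other window of Mcm7 held no letters of either kind. That of Cdt1 held an E2F match that begins at transcribed base 33. In the window of Mcm2, chosen for contrast, only CHR letters were found, 70 bases before the start. The 4 windows follow, each on its gene's strand, with matched letters of either kind in capitals. They are chr1:128359656-128359955 (minus strand) for Mcm6, chr5:138171834-138172133 (minus) for Mcm7, chr8:122567765-122568064 (plus) for Cdt1 and chr6:88898731-88899030 (minus) for Mcm2.
Mcm6: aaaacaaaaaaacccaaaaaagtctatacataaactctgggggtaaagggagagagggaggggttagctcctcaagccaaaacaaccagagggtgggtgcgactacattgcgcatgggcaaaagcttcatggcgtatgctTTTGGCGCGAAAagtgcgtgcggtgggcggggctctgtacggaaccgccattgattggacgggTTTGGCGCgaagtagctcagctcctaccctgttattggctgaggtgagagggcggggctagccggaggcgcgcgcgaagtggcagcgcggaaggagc
Mcm7: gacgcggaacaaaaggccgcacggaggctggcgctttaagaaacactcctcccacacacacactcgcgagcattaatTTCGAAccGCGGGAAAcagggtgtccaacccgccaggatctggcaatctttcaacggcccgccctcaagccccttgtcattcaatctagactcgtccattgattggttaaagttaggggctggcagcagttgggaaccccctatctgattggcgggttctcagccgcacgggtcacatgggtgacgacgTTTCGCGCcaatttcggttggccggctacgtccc
Cdt1: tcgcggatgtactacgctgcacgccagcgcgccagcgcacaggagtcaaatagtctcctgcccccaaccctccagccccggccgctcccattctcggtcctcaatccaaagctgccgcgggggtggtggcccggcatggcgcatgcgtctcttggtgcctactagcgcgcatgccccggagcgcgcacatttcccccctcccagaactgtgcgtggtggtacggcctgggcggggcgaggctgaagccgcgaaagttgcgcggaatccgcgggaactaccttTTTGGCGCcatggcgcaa
Mcm2: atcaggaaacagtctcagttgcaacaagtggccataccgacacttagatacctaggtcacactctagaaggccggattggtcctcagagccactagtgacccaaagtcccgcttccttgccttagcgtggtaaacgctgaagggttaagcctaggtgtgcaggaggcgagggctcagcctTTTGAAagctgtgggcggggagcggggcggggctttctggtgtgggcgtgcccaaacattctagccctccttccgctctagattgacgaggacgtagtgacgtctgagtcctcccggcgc

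The E2F letters of the other genes are shown with their flanks, in capitals, to let the sites be compared. They lie at chr1:20820275-20820304 and chr1:20820263-20820285 (minus) for Mcm3, chr8:75109347-75109376 (plus) for Mcm5 and chr11:98908002-98908031 (plus) for Cdc6. In Mcm5, as in the upstream place of Mcm6, matches on opposite strands overlap, so the letters read as an E2F match from either side.
Mcm3 first: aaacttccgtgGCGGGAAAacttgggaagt
Mcm3 second: acttgggaagtTTTGGCGCcaag
Mcm5: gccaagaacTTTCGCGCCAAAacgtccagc
Cdc6: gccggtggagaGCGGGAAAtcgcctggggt

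A match of letters is not a measured binding site, and the absence of a match from the windows of Mcm2 and Mcm10 concerns these letters and this length only. Outside the members, the 529 tested genes whose windows held E2F letters had a median log2 difference of 0.05, and 18.9% of them separated the groups with m4PTB higher. The 12996 genes without these letters had a median of 0.01, and 9.49% of them separated in that direction. Only the members were removed from either set, so these sets can include partners and proliferation markers described below. The part of E2F in these differences was not tested.

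Among the 6 subunits of the helicase ring, Mcm6 differed most. Its log2 signal was 7.40, 7.93 and 7.20 on vehicle replicates 1, 2 and 3, and 8.24, 8.25 and 8.09 on m4PTB replicates 1, 2 and 3. The m4PTB values lay close together and above every vehicle value, with vehicle replicate 2 the nearest below them. The difference was 0.68 log2 units, standard error (SE) 0.17, a fold of 1.60 with a 95% interval of 1.22 to 2.11, and limma gave an adjusted p of 0.587 and an unadjusted p of 0.00423. Only 0.252% of the genes tested had a larger positive difference. It was 0.53 without vehicle replicate 3 and 0.89 without vehicle replicate 2, and the exact two-sided permutation test over all 6 arrays gave p = 0.1, the smallest it can give with 3 against 3.

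Mcm7, another subunit of the ring's catalytic core, was at 8.38, 9.04 and 8.33 in vehicle kidneys and at 9.29, 9.15 and 8.88 in m4PTB kidneys. The groups overlapped, as vehicle replicate 2 exceeded m4PTB replicate 3. The difference was 0.52 ± 0.19 (standard error), a fold of 1.44 (95% interval 1.05 to 1.96, limma adjusted p = 0.679). Vehicle replicate 2 stood well above the other vehicle arrays here, and without it the difference was 0.75.

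Mcm4, which with Mcm6 and Mcm7 can form a subcomplex that unwinds DNA, read 7.62, 8.03 and 7.46 in vehicle and 8.28, 8.07 and 8.01 in m4PTB kidneys. Vehicle replicate 2 and m4PTB replicate 3 were nearly level, and this was the whole overlap between the groups. The log2 difference was 0.42 (SE 0.15), and limma's adjusted p was 0.679.

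Mcm2, whose tail also binds histones, was at 8.34, 8.67 and 8.32 in vehicle kidneys and at 8.89, 8.84 and 8.72 in m4PTB kidneys. Every m4PTB value was above every vehicle value, by a margin of only 0.045 at the closest. Its difference of 0.37 had the smallest standard error of the 6 subunits, 0.11, and the adjusted p by limma was 0.627. Mcm5, which forms with Mcm2 the gate through which the ring opens on DNA, read 8.17, 8.65 and 8.21 against 8.96, 8.73 and 8.52. These groups overlapped at the same arrays as those of Mcm7, and the difference was 0.39 (SE 0.16).

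Mcm3, a subunit that contacts Cdc6 during loading, was at 6.94, 7.26 and 6.76 in vehicle kidneys and at 7.44, 7.42 and 7.08 in m4PTB kidneys. The low value of m4PTB replicate 3 fell between the vehicle values. Its difference of 0.33 (SE 0.15) had a 95% interval from -0.01 to 0.67, which includes 0, and without vehicle replicate 3 it was 0.21. The intervals of the 6 subunits overlapped, from 0.29 to 1.08 for Mcm6 at the top, and whether the subunits differed from one another was not tested.

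**Figure D2:**
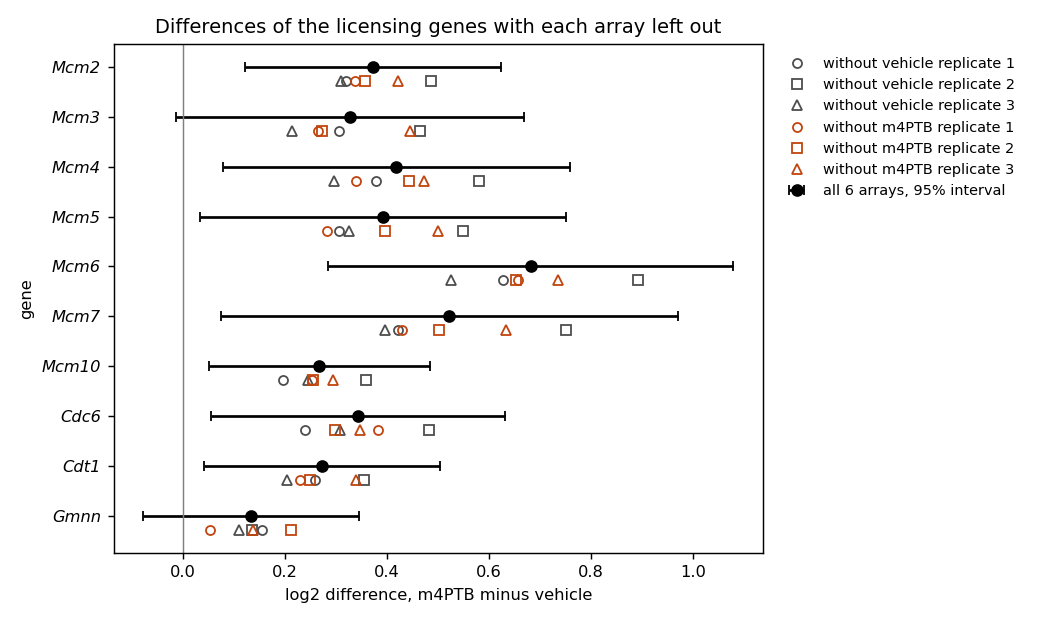
Log2 difference of each licensing gene, m4PTB minus vehicle, with its 95% interval from limma (black) and, below it, the differences with 1 array left out (open symbols). All differences stay above 0, the values without vehicle replicate 2 (grey squares) are the highest for Mcm2 to Mcm7, Mcm10, Cdc6 and Cdt1, and the intervals of Mcm3 and Gmnn cross 0.

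The loading factors Cdc6 and Cdt1 were also higher in m4PTB kidneys, and whether they differed from the ring subunits was not tested. Cdc6, an ATPase that helps the origin recognition complex to load the ring, was at 5.996, 6.48 and 6.13 in vehicle kidneys and at 6.47, 6.64 and 6.54 in m4PTB kidneys. Vehicle replicate 2 and m4PTB replicate 1 were nearly equal, and the other vehicle arrays lay clearly lower. Its difference was 0.34 (SE 0.12) (limma adjusted p = 0.679). Cdt1, which carries the ring to the origin, read 7.43, 7.62 and 7.32 against 7.82, 7.78 and 7.60. The overlap was again between vehicle replicate 2 and m4PTB replicate 3, and the difference was 0.27 (SE 0.10).

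Mcm10, which acts after loading and is no part of the ring despite its name, was at 6.65, 6.98 and 6.75 in vehicle kidneys and at 7.09, 7.09 and 7.01 in m4PTB kidneys. The groups did not overlap, although vehicle replicate 2 came within 0.031 of m4PTB replicate 3. After subtraction of array medians the groups overlapped. The difference was 0.27 (SE 0.09), a fold of 1.20 (95% interval 1.04 to 1.40, limma adjusted p = 0.679). Signals of Mcm3, Mcm10, Cdc6, Cdt1 and Gmnn stayed under the control ceiling on every array, while Mcm2, Mcm5 and Mcm7 lay above it on all 6 arrays and Mcm4 and Mcm6 on 4.

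Geminin, the inhibitor of licensing, had the smallest difference of the members. Gmnn was at 6.05, 6.01 and 5.96 in vehicle kidneys and at 6.31, 5.99 and 6.14 in m4PTB kidneys. The values of m4PTB replicate 2 and the vehicle arrays were mixed, and the vehicle arrays were nearly level. Its difference of 0.13 (SE 0.09) had a 95% interval from -0.08 to 0.35, limma's adjusted p was 0.711 and the exact two-sided permutation test gave p = 0.3. Of all genes tested 14.9% had a larger positive difference. Signals of Gmnn lay little above the median of the negative controls, which was 5.56 to 5.95 over the arrays. Gmnn also varied less in step with the others. Pearson correlations between Gmnn and the other members over the 6 arrays ran from 0.24 to 0.65, with a median of 0.53. Those among the 15 pairs of ring subunits ran from 0.91 to 0.99. Taken on deviations from the group means, which leave the treatment out, the same ranges were -0.36 to 0.41 and 0.84 to 1.00. These correlations describe 6 arrays that share 1 normalization. The part of the low signal of Gmnn in its small difference and its low correlations was not tested.

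The order of the arrays was nearly the same from gene to gene. Vehicle replicate 2 was the highest vehicle array for 9 of the 10 members, the exception being Gmnn, and for 30.8% of all genes. Vehicle replicate 3 was the lowest vehicle array for 7 members and for 42.6% of all genes, and m4PTB replicate 1 was the highest of all 6 arrays for 8 members and for 3367 of the 18238 genes. With every gene centred on its own mean, the members' mean was -0.29, 0.08 and -0.35 on vehicle replicates 1, 2 and 3 and 0.29, 0.21 and 0.07 on m4PTB replicates 1, 2 and 3. Vehicle replicate 2 and m4PTB replicate 3 were therefore level, and the remaining arrays were apart. The SD between vehicle arrays exceeded that between m4PTB arrays for 9 of the 10 members, as it did for 65.8% of all genes.

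**Figure D3:**
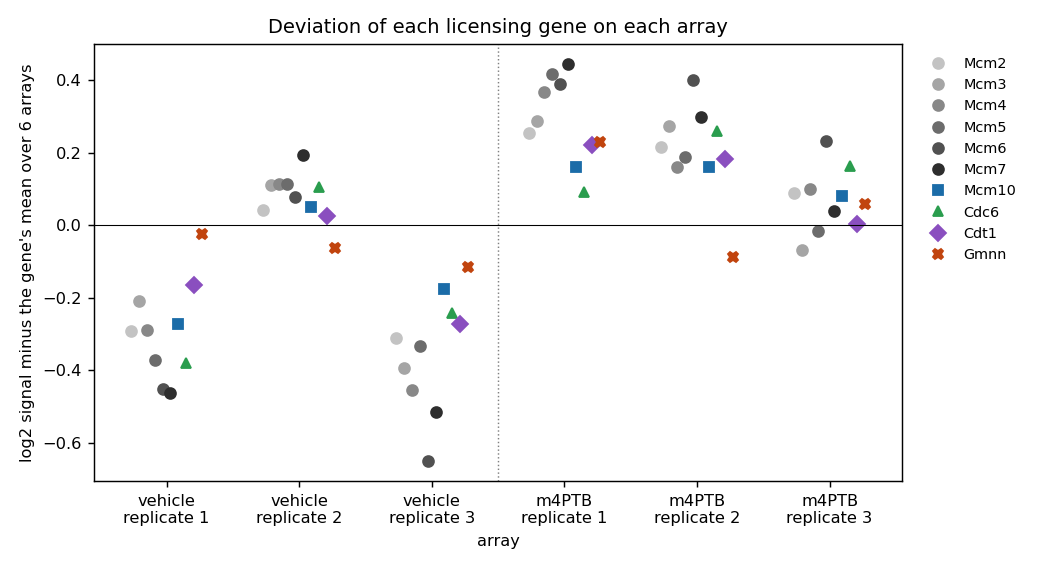
Deviation of each licensing gene from its own mean over the 6 arrays, in log2 units, by array, with the ring subunits in shades of grey and the other members in colour. Except for Gmnn (crosses), the genes lie, to differing extents, below 0 on vehicle replicates 1 and 3. They lie above 0 on vehicle replicate 2 and on m4PTB replicates 1 and 2.

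The count of separated members depended on these middle arrays. Without vehicle replicate 2, 9 of the 10 members separated the groups, all but Gmnn, and so did 17.6% of all genes with m4PTB higher. Without m4PTB replicate 3 it was 8 of the 10, all but Cdc6 and Gmnn, with 14.9% of all genes. It was 3 without vehicle replicate 1 or 3 (16.0% and 14.1% of all genes) and 4 without m4PTB replicate 1 or 2 (14.2% and 14.0%). Without vehicle replicate 3, the array that stood apart, the members' median difference was 0.30, all 10 were still higher, and the smallest difference was 0.11.

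The wider machinery of licensing and origin firing was followed in 39 measured genes of a list of 40, Mcmbp being not among the genes tested. None passed over all genes tested (smallest adjusted p by limma 0.626). There were 36 higher and 3 lower, while 54.5% of all genes were higher. The median log2 difference was 0.21 against 0.01 for all genes. The 3 m4PTB values lay above the vehicle values for 13 of the 39, and for 9.38% of all genes. That count was 24 without vehicle replicate 2, beside 17.6% of all genes, and 20 without m4PTB replicate 3, beside 14.9%. Of the 39, 27 lay below the control ceiling on every array, among them all partners named below except Topbp1 and Ccna2. This limits what can be read from their differences.

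The genes that turn the loaded ring into a helicase were all 10 higher, with a median of 0.32, and 5 of them separated the groups. Of all genes 54.5% were higher and 9.38% separated in that direction, and the partners were sorted into roles after their values were seen. Dbf4, the regulatory subunit of the kinase that phosphorylates the ring, read 6.81, 6.95 and 6.25 in vehicle and 7.33, 7.26 and 6.96 in m4PTB kidneys, where vehicle replicate 2 and m4PTB replicate 3 were nearly equal. Its difference was 0.51 (SE 0.18). The catalytic subunit Cdc7 differed by 0.46, the GINS subunits Gins1 and Gins3 by 0.45 and 0.29, and Topbp1, a scaffold for helicase assembly, by 0.41. These 5 had adjusted p from 0.638 to 0.679 by limma.

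Genes of origin recognition were nearly level. All 7 were higher, by 0.01 to 0.30, with a median of 0.09, and Orc6 was the 1 that separated the groups. Over all genes 54.5% were higher and 9.38% separated in that direction. Orc6 read 7.01, 7.28 and 7.03 in vehicle and 7.49, 7.42 and 7.33 in m4PTB kidneys, a difference of 0.30 (SE 0.09). Whether origin recognition genes differed less than the ring subunits was not tested.

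Genes for the destruction of Cdt1 and Cdc6 were mixed, with 4 of 5 higher, beside 54.5% of all genes, and a median of 0.07. Dtl, the adaptor that directs an E3 ligase to Cdt1 on replicating DNA, read 6.76, 7.21 and 6.40 in vehicle and 7.57, 7.32 and 7.25 in m4PTB kidneys. The groups were apart by a narrow margin, with vehicle replicate 2 next to m4PTB replicate 3, and the difference was 0.59 (SE 0.19). Skp2, the substrate receptor of another ligase that acts on Cdt1, differed by 0.24.

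Cyclin A2 (Ccna2), whose kinase prevents new licensing in S phase, had the largest difference of the list. It read 8.88, 9.38 and 8.48 in vehicle and 10.03, 9.77 and 9.44 in m4PTB kidneys, a difference of 0.83 (SE 0.23) (limma adjusted p = 0.626). The order of the arrays was that of Mcm2. Mcm8, a relative of the ring subunits with a role in recombination repair, differed by 0.47, and the fork proteins Mms22l and Wdhd1 by 0.37 and 0.32. The geminin relatives Gmnc and Mcidas, which act in multiciliated cells, differed by 0.17 and -0.04, and neither was above the control ceiling on any array.

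**Figure D4:**
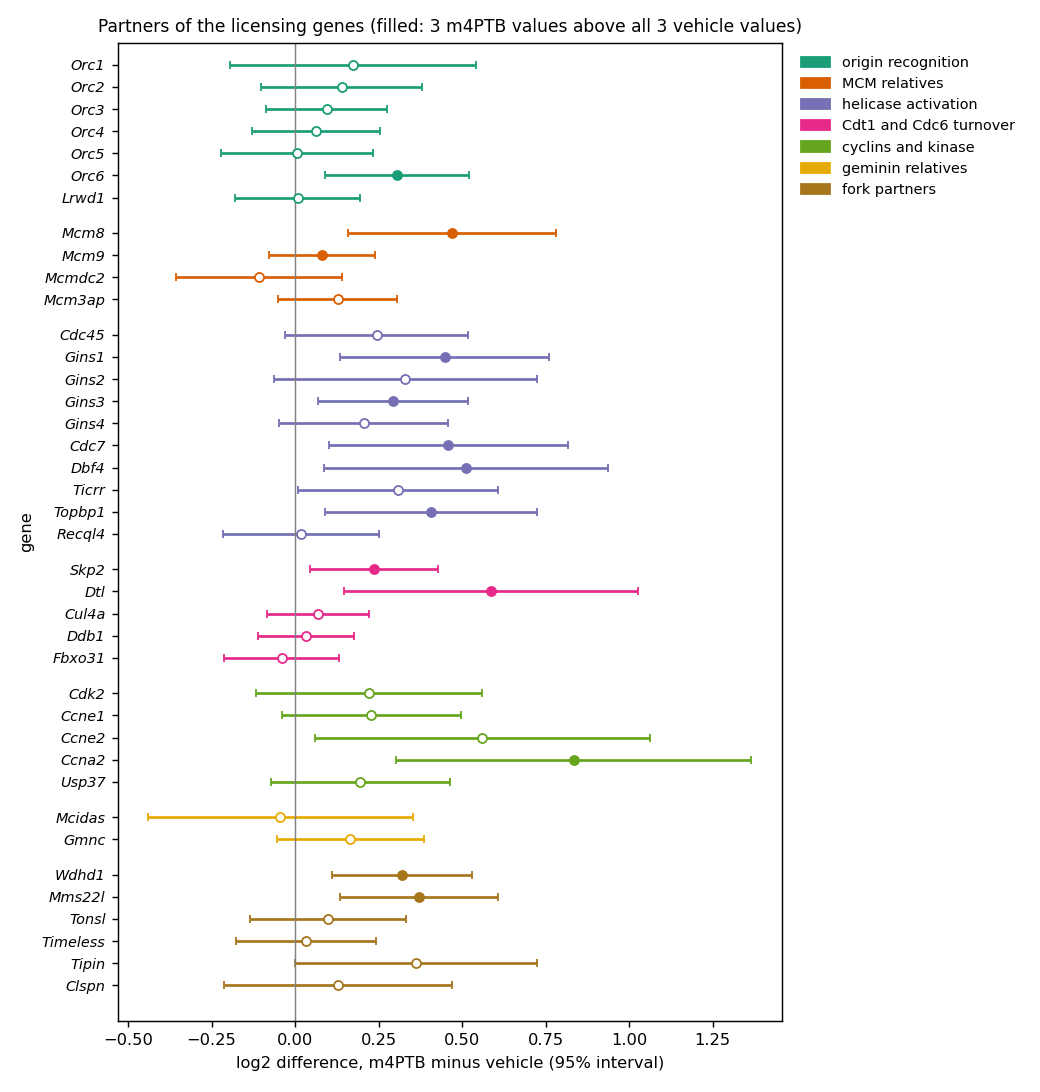
Log2 difference, m4PTB minus vehicle, with its 95% interval from limma for the 39 partners of the licensing genes, coloured by role, filled where the 3 m4PTB values lay above all 3 vehicle values. Helicase activation genes lie to the right of 0, most origin recognition genes near 0, and Ccna2 lies farthest to the right at 0.83.

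Genes outside the members whose values followed the members' mean most closely over the 6 arrays included Tyms, Rad51b, Pcna and Dsn1, with Pearson correlations of 0.99 to 1.00. Tyms, which makes thymidylate for DNA synthesis, differed by 0.29, and Pcna, the sliding clamp of the replication fork, by 0.55. These genes were picked by their values on the same arrays, so their higher means in m4PTB kidneys followed from the choice. Of the 18228 genes outside the members 551 (3.02%) had a correlation over 0.9.

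Other cell types were followed by markers beside these results. All 4 proliferation markers, Mki67, Top2a, Pcna and Ccnb1, separated the groups, by 0.55 to 0.94, as did 9.38% of all genes with m4PTB higher, and in each of them vehicle replicate 2 was the highest vehicle array and m4PTB replicate 3 the lowest of its group. The summed log2 signal of 7 macrophage markers was 51.8 to 54.3 on vehicle and 53.3 to 54.8 on m4PTB arrays, with 7 of 7 higher and none at an unadjusted p under 0.05, and Adgre1, Itgam and C1qa lay below the control ceiling on every array. Sums were 35.8 to 36.8 against 36.5 to 37.1 for 4 endothelial markers, of which 3 were higher, and 47.1 to 48.7 against 48.4 to 48.7 for 5 fibroblast markers, of which 4 were higher. Among these Pecam1 was higher by 0.35 (unadjusted p = 0.0194 by limma) and Dcn differed by -0.28 (unadjusted p = 0.013 by limma), both without overlap between the groups. Those of 6 proximal tubule markers were 71.7 to 72.1 against 71.5 to 71.7, with 3 higher and 3 lower, Aqp1 at -0.19 (unadjusted p = 0.0443 by limma), and each was above the control ceiling on all 6 arrays. All 9 markers of the loop of Henle, distal tubule and collecting duct were lower in m4PTB kidneys, none at an unadjusted p under 0.05, and 3 of 4 podocyte markers were higher. Beside these marker counts, 54.5% of all genes were higher. The groups also did not overlap for the macrophage marker Cd14, with m4PTB higher. Slc34a1 of the proximal tubule and Umod of the loop of Henle separated with m4PTB lower. Over all genes 9.38% separated with m4PTB higher and 5.21% with m4PTB lower. The measured neutrophil (2 of 4), T cell (3 of 4) and B cell (1 of 3) markers all lay below the control ceiling on every array. Of the injury markers, Lcn2, the gene of the secreted lipocalin NGAL, read 10.44, 10.58 and 9.35 on vehicle and 11.26, 10.63 and 10.46 on m4PTB arrays, a difference of 0.66 (SE 0.33, limma adjusted p = 0.685). Its groups overlapped, and its order of arrays was that of Mcm4. Havcr1, which encodes Kim1, differed by 0.01 (SE 0.16). Kim1 was among the measures by which kidneys of like injury had been chosen, which limits what a level Havcr1 can show. The part of any of these cells, or of the degree of injury, in the differences of the licensing genes was not tested.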

How the data were processed

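Kidney RNA (10 ug) of 6 samples was labelled with biotin per the labels' protocols. The authors deposited log2 signals per probe set, which the submitters' processing notes credit to RMA and Affymetrix Expression Console 1.1. RMA equalizes probe intensities between arrays, which can hide a common shift, yet medians over the genes tested were 7.45 to 7.51 on vehicle and 7.54 to 7.55 on m4PTB arrays. The gene symbol and accession columns, unit other, were deposited as annotation per the file headers. A further 6 signal columns, whose array names match no label, were not used.

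Probe sets with 1 symbol (25004 of 35556, of which 2269 symbols were updated by accession from RefSeq's table of GRCm38.p6) and 5 or more log2 units on 3 or more arrays were used, with the probe set of highest mean per gene, which left 18238 genes. Control probe sets (6559) were left out. The array annotation names the build NCBIM37, and printed coordinates are those of RefSeq's promoter windows on GRCm38.p6. The difference, m4PTB minus vehicle, came from limma 3.58.1 (lmFit, eBayes) in R 4.3.3 on all 6 arrays with no covariate, with Benjamini-Hochberg adjustment over all genes and a threshold of 0.05. Exact permutation tests used scipy 1.17.1, and the fit was tested on simulated data. Motif counts and figures used plain scripts and matplotlib 3.10.9. Protein sequences were not analysed here. The number of arrays, 3 per group, limits the precision.

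Groups came per the labels' sample titles, which number the replicates and say no more, so the spread behind each p-value may be partly technical. Members, lists and tests were chosen with earlier results of these data known. Named were all members, the 12 partners of smallest p with the geminin relatives, the 5 genes most like the members, of which 1 is not reported here, and markers. Partners were sorted into roles after their values were seen. Alternatives left out each array, added the replicate number, or changed the normalization, filter, probe set rule, variance model, weights or symbols.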

Additional observations from a re-analysis of the deposited data

How the results depend on the processing

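All 10 members had a higher mean in m4PTB kidneys in each of the 15 alternatives that tested them, with differences from 0.053 to 0.89, and limma called 0 genes in every one, as in the fit reported (1318 genes at an unadjusted p under 0.05, and 772 to 1807 over the alternatives). Only limma was run. The replicate block and the changes of filter, probe set rule, variance model and symbols could not alter a member's difference. Its direction was therefore tried only by leaving out arrays, changing the normalization or weighting the arrays. The smallest adjusted p of a member was 0.177, for Mcm6 without vehicle replicate 2. The median difference of the members stayed between 0.28 and 0.48. Members at an unadjusted p under 0.05 numbered 8, and 2 to 9 when 1 array was left out, with 2 without vehicle replicate 1 and 9 without vehicle replicate 2. They were 4 with each array's median subtracted, 5 with array weights, and 5 with a filter at the control ceiling (the value under which 90% of an array's negative controls fall), where only 5 members were tested. Members that separated the groups numbered 3, and 3 to 9 when 1 array was left out, with 9 without vehicle replicate 2 and 8 without m4PTB replicate 3. They were 2 with each array's median subtracted, where Mcm10 no longer separated, and 2 of the 5 tested with a filter at the control ceiling. The share of all genes that separated was not counted in either setting. The replicate block gave 9 members at an unadjusted p under 0.05, and the same median difference of 0.36. Same-numbered samples did not deviate together (correlations of -0.13, -0.05 and -0.08 over all genes), so the numbers were not taken as pairs. The block took genes at that level from 1318 to 1105 and called none. The planned swap to the other signal columns was not run, since their names match no label, and the planned protein comparison was not run, since no protein table was used here. For those moved counts the cause was not tested. Of the members, 5 lay below the control ceiling on all arrays, which limits what can be read from their differences.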

Other observations

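Probe sets of 3 microRNA genes that lie inside Mcm7 in RefSeq, Mir106b, Mir93 and Mir25, were examined after the values of Mcm7 were seen. The products miR-93-5p and miR-106b-5p share a seed, bases 2 to 8, shown in capitals, and miR-25-3p has another.
mmu-miR-106b-5p: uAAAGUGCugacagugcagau
mmu-miR-93-5p: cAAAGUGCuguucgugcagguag
mmu-miR-25-3p: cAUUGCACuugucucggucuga

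While Mcm7 differed by 0.52, Mir106b read 5.66, 5.36 and 5.94 on vehicle and 5.56, 5.52 and 5.58 on m4PTB arrays, a log2 difference of -0.10 (SE 0.14). Mir93 and Mir25 differed by 0.02 and -0.14. For each of these 3 genes the groups overlapped, and all lay below the control ceiling on every array. The label protocol describes cRNA made from total RNA and does not say which microRNA forms it captures, so these values do not measure the mature microRNAs.

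The nearest protein-coding neighbours of the members in RefSeq's gene order, and genes that overlap them, were also examined after values were seen. Of 20 such genes tested 13 were higher and 7 lower, with a median log2 difference of 0.035, while 54.5% of all genes were higher. The groups did not overlap for 6 of the 20 with m4PTB higher, Paqr8, Ube2v2, Cops6, Optn, Wipf2 and BC005537, and for 1 with m4PTB lower, Podxl2, beside 9.38% and 5.21% of all genes. That is 6 of 20 neighbours and 3 of 10 members. Prkdc, the catalytic subunit of the DNA repair kinase DNA-PK and the next gene to Mcm4, differed by 0.14 (SE 0.10), where Mcm4 differed by 0.42. Hmox1, a heme-degrading enzyme next to Mcm5, had the largest difference of these neighbours, 0.44 (SE 0.19) (limma adjusted p = 0.685). Ap4m1, which overlaps Mcm7 in that table, differed by 0.01.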
